A study of Mus musculus with 10 samples.

Results

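The arrays compared here were the pair of islet grafts taken on day 10, the end of the series, and the pair of biopsies taken on day 0 from mice without a graft, 4 of the 10 arrays of the study. The question was what stayed changed at the graft site on day 10 and what was back at the level of ungrafted tissue. The recipients were young male Swiss nu/nu mice. The graft labelled PSI was a scaffold of rat plasma that held islets of Wistar rats and was laid under the skin, over the abdominal muscle, of mice made diabetic with streptozotocin. The graft labelled PSI-F also held cultured skin fibroblasts from nude mice. The biopsy labelled Diabetic came from the subcutaneous tissue of a streptozotocin diabetic mouse, and that labelled Control from a healthy mouse. Each condition had 1 array. The study's methods do not say whether an array read 1 mouse or several. The grafts and the biopsies therefore differed in the transplant, the rat tissue, the surgery and the time at once. Against Control, the grafts also differed in the streptozotocin given to their recipients. These differences cannot be told apart.

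A graft under the skin is a wound. Neutrophils enter first, monocytes follow and become macrophages that clear fibrin and dead cells, and fibroblasts replace the clot with collagen. Nude mice lack working FOXN1, the transcription factor that thymus and hair shaft need, so they make few T cells and carry defective hair, but they have B cells, granulocytes and macrophages. Streptozotocin kills beta cells, and a mouse without insulin behaves like a fasted one, with glucocorticoid signals that break down muscle protein.

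Levels are the deposited log2 values of the array, so that a difference of 1 is a 2-fold change, and the probe set with the highest mean stands for each of 18193 genes. All are levels of tissue RNA. In such bulk samples fewer cells of a type and less RNA per cell cannot be told apart, and a rat transcript is seen only where it binds a mouse probe. The median level lay between 2.82 and 2.94 on all 10 arrays. The day 10 grafts were the pair of same-day arrays most like each other, with 39 of 45037 probe sets at least 4-fold apart, whereas Control and Diabetic differed by that much in 538. The difference between the biopsies is thus an outcome of its own, so levels below are given for each biopsy. A difference with a standard error, and a list median unless stated otherwise, is from the mean of both biopsies. Both day 10 grafts lay within 2-fold of Control for 94.6% of the genes and within 2-fold of Diabetic for 87.9%. Skeletal muscle and epidermis were present on all 4 arrays. Acta1, the actin of muscle fibres, had 12.87 in PSI and 12.88 in PSI-F, against 12.87 in Diabetic and 12.65 in Control. Krt14, the keratin of basal epidermis, had 11.18 and 10.94 in the grafts, against 9.66 in Diabetic and 11.87 in Control. Poly-A control transcripts, which are added to the RNA during labelling, were brighter in both day 10 grafts than in both biopsies for 12 of 24 probe sets, by a median of 0.28 over the 24 probe sets.

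Among the genes that passed the test, most were higher in the day 10 grafts, while over all 18193 genes more lay below both biopsies than above both. In both grafts 3399 genes (18.7%) lay above both biopsies and 3787 (20.8%) below both, and the median difference over all genes was -0.01. In a limma fit of all 10 arrays as 5 same-day pairs, 346 probe sets were higher and 25 lower at an adjusted p under 0.05, out of 45037. Over genes, 191 of 18193 were called higher (1.05%) and 6 lower (0.033%). These shares, and those above and below both biopsies, are the background for every gene list below. The spread in this fit is that between arrays of the same day, which differed in treatment, so that the p-values do not measure the spread between mice. The 4 arrays alone called 0 probe sets, with a smallest adjusted p of 0.101 and 3735 probe sets at an unadjusted p under 0.05. Without PSI of day 10, 22 probe sets were called higher, without PSI-F 20, without Diabetic 278 and without Control 2909, and 0, 0, 58 and 2720 were called lower. Of the 191 genes called higher, 12 stayed called without PSI and 12 without PSI-F. Of the 6 genes called lower, the largest difference was that of Il22ra1, a receptor chain for interleukin 22 on epithelia, with 3.06 and 3.45 in the grafts, against 4.76 in Diabetic and 4.28 in Control. Its difference was -1.26 ± 0.20 (SE, 2 arrays a side, adjusted p = 0.031), and it is named here because its value stood out.

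At 4-fold the genes were sorted by the biopsy they were past, as a description with no test. The share of all genes in each class, in brackets, is the background for class counts from the gene lists. Past both biopsies, with all 4 differences of at least 2, were 36 genes that were higher (0.198%) and 0 that were lower (0.0%). Past Diabetic only were 128 that were higher (0.704%) and 46 that were lower (0.253%). Past Control only were 15 that were higher (0.0824%) and 3 that were lower (0.0165%). One gene, Rnase2b, stood in both of these classes, since at 4.88 and 4.67 it lay above Diabetic (1.88) and below Control (7.18). Limma called 32 of the 36 genes past both, 34 of the 128 higher than Diabetic only and 0 of the 46 lower ones. Of the 36, it called 8 without PSI of day 10, 10 without PSI-F, 29 without Diabetic and 33 without Control. Over probe sets, 55 were higher than both biopsies, 117 without PSI-F and 285 without Control. These counts can only rise when an array is left out, since fewer differences then have to pass. The genes nearest the threshold inside were C1qa, Cfb and Lrrc17, with smallest differences of 2.01, 2.02 and 2.04, and nearest outside were Fcer1g (1.99), Col14a1 (1.97) and Lyl1 (1.97).

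**Figure D1:**
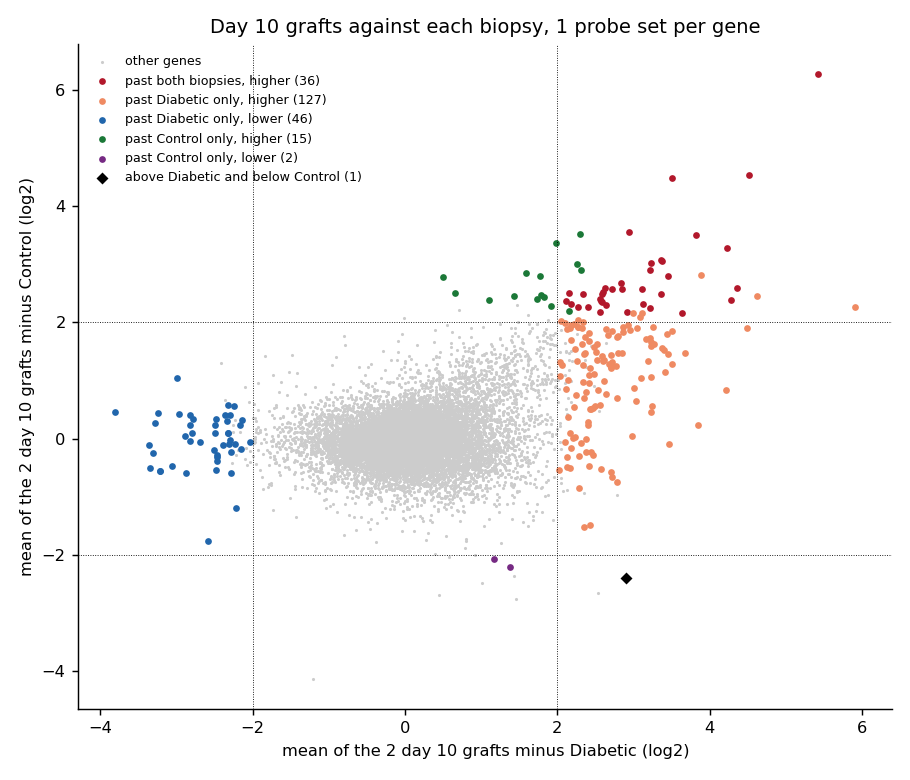
Each point is 1 gene, with the mean of the 2 day 10 grafts minus Diabetic on the x axis and minus Control on the y axis, both in log2. Coloured genes met the 4-fold rule in both grafts and dotted lines mark 4-fold, so 36 genes sit high and to the right, and the 46 genes lower than Diabetic only form a band around 0 on the Control axis.

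The gene with the largest difference was Ins2, an insulin gene. It had 7.70 in PSI and 9.40 in PSI-F, against 3.13 in Diabetic and 2.28 in Control, a difference of 5.85 ± 0.49 (57.5-fold, adjusted p = 0.00294). Both grafts stood far above both biopsies. On earlier days the grafts had between 8.67 and 10.60. Its probe set is of the kind that can cross-hybridise, and the beta cells transplanted were those of a rat. Of 23 islet genes measured, Ins2 was the 1 called higher. Above both biopsies lay 11 and below both 3, against 18.7% and 20.8% of all genes, and the median difference was 0.16. Neurod1, a transcription factor of endocrine cells, had 1.72 and 2.21 in the grafts, against 1.09 in Diabetic and 0.64 in Control, and did not pass the test (difference 1.10 ± 0.22, adjusted p = 0.0694). Gcg, glucagon, had 0.88 and 0.90 in the grafts, against 0.82 in both biopsies, and Iapp, the amyloid peptide stored with insulin, had 3.48 and 3.63, against 3.28 in Diabetic and 2.59 in Control.

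Macrophage genes made up the largest group past both biopsies. Of 23 genes listed for monocytes and macrophages, 17 were called higher and 0 lower, 9 were past both biopsies, and 20 lay above both biopsies in both grafts, where 18.7% of all genes did. The median difference over the list was 2.03. Lyz2, the lysozyme of macrophages and granulocytes, had 10.64 in PSI and 10.38 in PSI-F, against 7.27 in Diabetic and 7.49 in Control (difference 3.13 ± 0.33, adjusted p = 0.0077). Ctss, the protease cathepsin S that trims the invariant chain in antigen presenting cells, had 10.17 and 10.03, against 7.25 and 7.52 (difference 2.72 ± 0.17, adjusted p = 0.00169). Cd68, a lysosomal marker of macrophages, had 6.55 and 6.59, against 4.01 and 4.39 (difference 2.37 ± 0.21, adjusted p = 0.00427). For these genes the day 10 grafts were close to each other, and so were the biopsies. Mpeg1, which encodes the pore-forming perforin-2, and Ms4a7, a membrane protein of macrophages, differed by 2.85 ± 0.26 and 3.06 ± 0.22. Aif1, the IBA1 protein of activated macrophages, and Clec4a3, a lectin of the same cells, had differences of 3.33 ± 0.52 and 3.47 ± 0.45, and here Control was higher than Diabetic by 1.90 and 1.77. Tyrobp, the adaptor through which many myeloid receptors signal, and Cybb, the catalytic subunit of the phagocyte NADPH oxidase, differed by 2.54 ± 0.30 and 2.47 ± 0.25. Not every macrophage gene was raised. Cd163, a haemoglobin scavenger receptor, had 5.51 and 5.24, against 5.68 in Diabetic and 4.56 in Control, and Marco, another scavenger receptor, had 1.47 and 1.67, against 1.94 and 1.77. The median level of the list was 6.23 and 5.85 in the day 10 grafts, 4.05 in Diabetic and 4.22 in Control, whereas the grafts of days 1 to 7 had medians between 7.03 and 8.10.

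The start regions of Ctss and Cybb, which were past both biopsies, are shown to describe short motifs in them. PU.1 is the master regulator of macrophages, and whether it or interferons act on these genes was not tested. The windows are those of RefSeq (GRCm38.p6), 250 bases before to 50 after a gene start, and 24 of the 36 genes had one. Capitals mark an ISRE-like match (GAAA and GAAA with 2 bases of any kind between them, the interferon-stimulated response element) or a PU.1-like match (GAGGAAGT) in Ctss and ISRE-like matches in Cybb, on either strand.
Ctss: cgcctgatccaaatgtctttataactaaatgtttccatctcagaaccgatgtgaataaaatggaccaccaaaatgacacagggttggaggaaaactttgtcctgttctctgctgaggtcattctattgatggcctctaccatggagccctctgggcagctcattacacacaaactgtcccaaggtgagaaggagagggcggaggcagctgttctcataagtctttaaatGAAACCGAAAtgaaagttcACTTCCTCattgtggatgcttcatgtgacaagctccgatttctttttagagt
Cybb: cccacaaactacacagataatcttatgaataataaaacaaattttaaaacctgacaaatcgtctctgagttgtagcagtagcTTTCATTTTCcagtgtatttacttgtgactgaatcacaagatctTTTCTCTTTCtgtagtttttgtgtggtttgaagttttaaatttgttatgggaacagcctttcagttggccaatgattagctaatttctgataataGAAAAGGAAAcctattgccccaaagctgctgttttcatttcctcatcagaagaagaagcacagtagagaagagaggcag
Ctss is read from the plus strand of chr3:95526536-95526835 and Cybb from the minus strand of chrX:9469275-9469574. The ISRE-like match of Ctss begins 21 bases before the gene start and its PU.1-like match 2 bases before it, without overlap, and Cybb has 3 ISRE-like matches. ISRE-like letters stood in 5 of the 24 windows (20.8%: Aif1, Ctss, Cybb, Gzma and Saa3) and in 3.63% of the windows of all 14452 genes that had one. PU.1-like letters stood in 4 of 24 (16.7%: Ctss, Pirb, Pld4 and Tlr1), against 3.47% of all. Of other motifs searched, the D-box (TTATGNAA) was found in 3 of 24 (12.5%), against 2.88% of all, and the E-box (CACGTG) in 2 of 24 (8.33%), against 10.2%. A glucocorticoid response element (GRE-like, GNACA and TGTNC with 3 bases of any kind between them) and a cyclic AMP response element (CRE, TGACGTCA) were found in 0 of 24, against 0.422% and 2.92%. Both the motifs and the genes shown were chosen with the classes known, and a match of letters is a description and not a binding site.

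**Figure D2:**
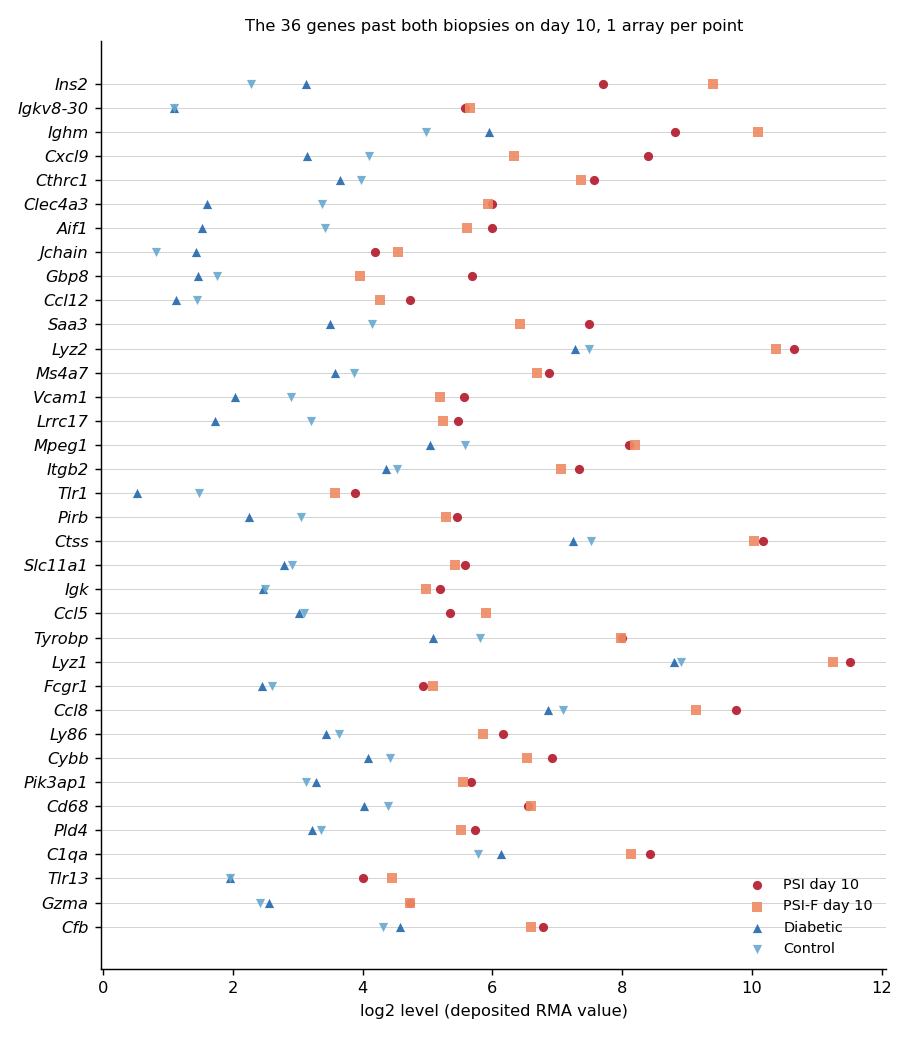
The log2 level of each of the 36 genes past both biopsies on the x axis, 1 point per array, with genes ordered by the size of the difference. The PSI and PSI-F points lie to the right of the Diabetic and Control points by at least 2 in every row, from Ins2 with a difference of 5.85 to Cfb with 2.24.

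Chemokines and complement were higher with the macrophage genes. Of 24 chemokines 4 were called higher, which were Ccl8, Ccl9, Ccl11 and Ccl12. Past both biopsies were 4 as well, against 1.05% of all genes called higher and 0.198% past both. Ccl12, a ligand of CCR2 that attracts monocytes, had 4.73 in PSI and 4.26 in PSI-F, against 1.13 in Diabetic and 1.44 in Control (difference 3.21 ± 0.45, adjusted p = 0.022). Ccl8 had 9.76 and 9.14, against 6.86 and 7.09 (difference 2.47 ± 0.29, adjusted p = 0.0106). The grafts did not overlap with the biopsies for either gene. Cxcl9, a chemokine induced by interferon gamma that attracts activated T cells, had 8.41 in PSI and 6.33 in PSI-F, against 3.14 and 4.09, and its difference of 3.75 ± 0.95 did not pass the test (adjusted p = 0.144). Gbp8, a guanylate binding protein of the same response, had 5.69 and 3.95, against 1.46 and 1.75, and its difference of 3.22 ± 0.79 did not pass either (adjusted p = 0.13). In both genes PSI was higher than PSI-F on day 10. Of 19 interferon response genes 0 were called, while 18 lay above both biopsies, where 18.7% of all genes did. Their median difference was 1.36, and 3 were past Diabetic only, which were Ifit1, Oasl2 and Usp18. Of 15 acute phase and complement genes 7 were called higher, with 3 past both biopsies. Saa3, an acute phase apolipoprotein made by macrophages and fat, had 7.50 and 6.42, against 3.50 and 4.15 (difference 3.13 ± 0.54, adjusted p = 0.0422). C1qa, a chain of the complement starter C1q, had 8.43 and 8.14, against 6.13 and 5.78 (difference 2.33 ± 0.30, adjusted p = 0.0153). The other C1q chains, C1qb and C1qc, were past Control only. Cfb, factor B of the alternative complement pathway, had 6.78 and 6.59, against 4.57 and 4.32 (difference 2.24 ± 0.27, adjusted p = 0.0124).

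Of the 36 genes past both biopsies, 31 had been past both on day 1, 3 or 7 in the same direction, and 5 were past both on day 10 alone. These 5 were Ighm, Jchain, Igk, Gzma and the kappa light chain variable gene shown under Ins2 in the plot of the 36 genes, of which Igk is named here for belonging to this count. All but Gzma are genes of immunoglobulin or its polymers. Jchain, which links IgM and IgA into polymers, had 4.19 in PSI and 4.55 in PSI-F, against 1.43 in Diabetic and 0.82 in Control, and between 0.93 and 1.28 in the 6 grafts of days 1 to 7. Its difference was 3.24 ± 0.23 (9.47-fold, adjusted p = 0.00193). Jchain was therefore raised in both grafts of day 10 and in none of the earlier ones. The kappa variable gene had 5.58 and 5.65, against 1.10 and 1.08, with 1.01 to 1.95 on earlier days (difference 4.53 ± 0.20, adjusted p = 0.000295). Ighm, the heavy chain of IgM, had 8.81 and 10.10, against 5.95 and 4.98, with 5.83 to 7.53 on earlier days (difference 3.99 ± 0.60, adjusted p = 0.0261). Mzb1, a chaperone of antibody assembly in plasma cells, had 3.24 and 4.05, against 2.22 and 2.05, with 2.16 to 2.44 on earlier days (difference 1.51 ± 0.24, adjusted p = 0.0329). Like Jchain, the kappa variable gene, Ighm and Mzb1 were thus highest on day 10. Ighm had already been above both biopsies before, with 7.53 in PSI of day 3. Igha, the heavy chain of IgA, had 7.65 and 5.26, against 4.15 and 2.93, and its difference of 2.91 ± 0.67 did not pass the test (adjusted p = 0.109). Of the 10 genes listed for B cells and plasma cells, 3 were called higher and 6 lay above both biopsies, against 1.05% and 18.7% of all genes. Cd22, a receptor of B cells, had 4.38 and 4.11, against 3.25 and 3.13, and did not pass the test (difference 1.06 ± 0.24, adjusted p = 0.102). Cd79a, a chain of the B cell receptor, had 1.96 and 2.13, against 1.96 and 2.07, and Ms4a1, the CD20 antigen, had 1.98 and 1.43, against 1.47 and 1.28. Immunoglobulin genes are near-identical copies of each other, so the gene that a probe set reads is uncertain, and 1 of the 11 probe sets of Ighm and 1 of the 4 of Igk were past both biopsies. Gzma, granzyme A of cytotoxic cells, had 4.73 in both grafts, against 2.56 and 2.42, and did not pass the test (difference 2.24 ± 0.66, adjusted p = 0.211). Unlike Jchain it had been high before, with 3.73 in PSI and 4.45 in PSI-F on day 1, 4.72 and 2.79 on day 3, and 3.84 and 5.54 on day 7. Of 14 genes listed for T and NK cells 0 were called, and 10 lay above both biopsies, where 18.7% of all genes did. Nkg7, a granule protein of cytotoxic cells, had 3.43 and 3.56, against 1.90 and 2.04, and Gzmb, granzyme B, had 3.88 and 3.13, against 1.88 and 1.69. The T cell receptor and co-receptor genes lay close together on all 4 arrays, with Cd3e at 3.30 and 3.21, against 3.22 and 2.95, and Cd8a at 2.74 and 2.81, against 2.82 and 2.76.

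The matrix of the graft was the other large group. Of 20 collagen genes 10 were called higher and 0 lower, where 1.05% of all genes were called higher. Above both biopsies lay 18, against 18.7% of all genes, and the median difference was 1.35. None was past both biopsies, while 6 were past Diabetic only and Col14a1 past Control only. Col1a1, the main chain of type I collagen, had 11.86 in PSI and 11.91 in PSI-F, against 9.61 in Diabetic and 9.97 in Control (difference 2.09 ± 0.25, adjusted p = 0.0118). Col5a2, a chain of the type V collagen that starts fibrils, had 9.98 and 9.82, against 7.74 and 8.0 (difference 2.03 ± 0.16, adjusted p = 0.00259). Both collagens had a narrow gap between the biopsies, and Control was 0.36 and 0.26 above Diabetic. Cthrc1, a secreted protein of activated fibroblasts in wounds, was past both, with 7.57 and 7.37, against 3.65 and 3.97 (difference 3.66 ± 0.18, 12.7-fold, adjusted p = 0.000407). It had 5.07 in PSI and 4.84 in PSI-F on day 1, 7.15 and 7.23 on day 3, and 9.07 and 8.75 on day 7, so that day 10 was below the peak and still above both biopsies. Fn1, fibronectin, and Lum, the proteoglycan lumican, differed by 1.84 ± 0.29 and 1.76 ± 0.27 (adjusted p = 0.0309 and 0.0283). Of 22 matrix proteases and inhibitors 3 were called higher, which were Mmp14, Mmp23 and Adamts12. Myofibroblast genes did not pass: of 13, 0 were called, and Acta2, the smooth muscle actin, had 8.93 and 8.70, against 7.48 in Diabetic and 8.66 in Control. Of 19 endothelial genes 0 were called, and 10 lay above both biopsies, where 18.7% of all genes did. The median difference was 0.51 from the mean of both biopsies, 0.21 from Diabetic and 0.78 from Control. Tie1, a receptor kinase of endothelium, had 4.61 and 4.92, against 3.98 and 3.67 (difference 0.94 ± 0.18, adjusted p = 0.0613), and Vwf, von Willebrand factor, had 5.41 and 5.56, against 4.90 and 4.62. Pecam1, the CD31 antigen, had 5.10 and 5.35, against 5.12 and 4.47.

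Among the 128 genes higher than Diabetic only, Control itself was at least 4-fold above Diabetic in 43, both grafts lay within 2-fold of Control in 40 and over 2-fold above Control in 70. The class thus mixed genes that were also raised against Control with genes that only Diabetic had low. Mmp12, the elastase of macrophages, had 7.23 in PSI and 6.45 in PSI-F, against 0.93 in Diabetic and 4.58 in Control, so that the mean of the grafts was 5.91 above Diabetic and 2.26 above Control. Iigp1, an interferon induced GTPase, had 7.67 and 6.65, against 2.53 and 4.70. H2-Eb1, a chain of MHC class II, had 8.22 and 6.20, against 3.32 and 4.39. Mmp12, Iigp1 and H2-Eb1 thus also stood above Control. Of 11 genes of class II antigen presentation, 2 were called higher and 9 lay above both biopsies, against 1.05% and 18.7% of all genes. The list also holds Itgax and the protease Ctss, and Ctss was 1 of the genes called. The class II chains H2-Eb1 and H2-Aa did not pass the test (adjusted p = 0.239 and 0.0511). Aplnr, the apelin receptor of vessels, had 7.65 and 7.21, against 3.22 and 6.60, and Thrsp, a promoter of fat synthesis, had 6.40 and 8.14, against 3.42 and 7.03. For both, Control was near the grafts, with the mean of the grafts 0.83 and 0.23 above it. Clec7a, the beta-glucan receptor dectin-1, and Cd52, a small glycoprotein of leukocytes, were 4.48 and 3.68 above Diabetic and 1.90 and 1.47 above Control. Of the 8 genes furthest from Diabetic in this class, limma called Coro1a, an actin regulator of leukocytes, alone (7.18 and 6.76, against 3.47 and 5.13, adjusted p = 0.0496). The 15 genes higher than Control only were led by Igha, Ccn3, Cxcl2 and Sfrp2. Ccn3, a matricellular protein, had 7.29 and 6.27, against 4.80 in Diabetic and 3.42 in Control (difference 2.67 ± 0.46, adjusted p = 0.0435), and Sfrp2, a secreted modulator of WNT signals, had 7.03 and 6.34, against 4.38 and 3.78 (difference 2.61 ± 0.32, adjusted p = 0.0131). Both lay above Diabetic as well. The 3 genes lower than Control only were Rnase2b and the hair genes Krtap13 and 2310034C09Rik.

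**Figure D3:**
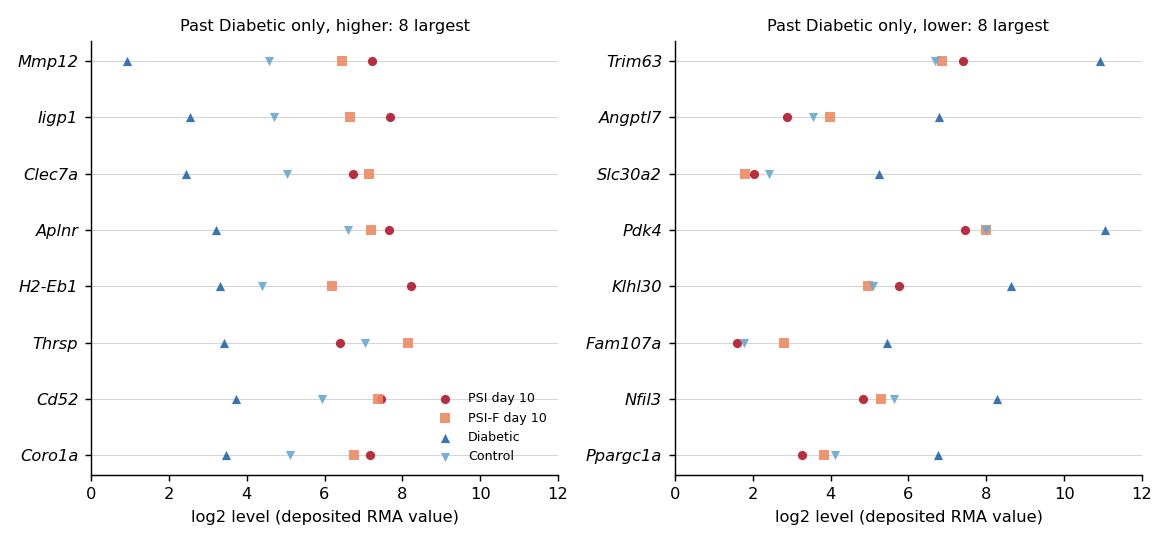
The log2 level on the x axis, 1 point per array, for the 8 genes furthest above Diabetic (left) and the 8 furthest below it (right) among those past Diabetic only. On the right the Control point lies with the 2 grafts and the Diabetic point stands alone, as for Trim63 with 7.40 and 6.86 in the grafts, 10.93 in Diabetic and 6.67 in Control.

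The 46 genes lower than Diabetic only were of another kind. In 40 of them Control itself was at least 4-fold below Diabetic, in 41 both grafts lay within 2-fold of Control, and in 2 both were over 2-fold below it. Limma called 0 of them. They included the genes of fasting and of glucocorticoid action. Trim63, the ubiquitin ligase MuRF1 of muscle atrophy, had 7.40 in PSI and 6.86 in PSI-F, against 10.93 in Diabetic and 6.67 in Control. Pdk4, the kinase that shuts off glucose oxidation in fasting, had 7.46 and 8.0, against 11.04 and 7.98. Fbxo32, the atrophy ligase atrogin-1, had 6.14 and 5.82, against 8.46 and 6.52. In each of them the Diabetic biopsy was high and the other 3 arrays were close together. The same held for Ppargc1a, the coactivator of mitochondrial genes, with 3.28 and 3.82, against 6.76 and 4.11, and for Klf15, a glucocorticoid-induced factor of amino acid breakdown, with 4.85 and 5.45, against 8.12 and 4.73. Of 18 glucocorticoid and fasting targets, 5 were in this class, against 0.253% of all genes. These were Pdk4, Fbxo32, Trim63, Klf9 and Klf15, and the median difference of the list was -1.66 from Diabetic and 0.09 from Control. Of 17 circadian clock genes, 2 were in the class of genes lower than Diabetic only, against the same 0.253%. Nfil3, a repressor of the clock, had 4.84 and 5.29, against 8.28 in Diabetic and 5.62 in Control, and Arntl, the BMAL1 activator, had 4.89 and 4.35, against 6.90 and 5.22. The labels do not give the hour of day at which a tissue was taken. Genes of skeletal muscle were also highest in Diabetic: the median level of 26 adult muscle genes was 11.25 and 11.24 in the grafts, 11.58 in Diabetic and 10.84 in Control, and its part in these values was not tested.

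The window of Trim63 is shown because it carries a GRE-like match, in capitals, 208 bases before the gene start (RefSeq, GRCm38.p6, plus strand of chr4:134314870-134315169).
Trim63: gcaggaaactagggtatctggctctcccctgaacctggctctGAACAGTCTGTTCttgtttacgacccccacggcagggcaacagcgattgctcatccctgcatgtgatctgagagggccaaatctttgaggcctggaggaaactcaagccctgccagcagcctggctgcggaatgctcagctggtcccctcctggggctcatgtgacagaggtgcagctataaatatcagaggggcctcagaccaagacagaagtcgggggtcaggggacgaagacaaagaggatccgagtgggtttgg
GRE-like letters stood in 2 of the 37 windows of genes lower than Diabetic only (5.41%: Fam107a and Trim63), and in 0.422% of all. E-box letters stood in 7 of these 37 windows (18.9%), against 10.2% of all. Fam107a, a glucocorticoid-induced actin binding protein, had 1.59 in PSI and 2.81 in PSI-F, against 5.44 in Diabetic and 1.77 in Control.

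Most of what had been past both biopsies earlier was no longer so on day 10. Genes higher than both biopsies in both grafts numbered 187 on day 1, 154 on day 3, 131 on day 7 and 36 on day 10, and genes lower than both numbered 82, 7, 22 and 0. All these counts use the same biopsies. Of 284 genes higher on at least 1 of days 1, 3 and 7, 58 (0.319% of all genes) were back at the biopsy level on day 10. Back means no more than 2-fold outside the range of the biopsies. A gene lying between the biopsies therefore counts as back even where it is 4-fold from 1 of them, as for Krtap13 and 2310034C09Rik against Control. Another 31 were still past both, and 195 were neither. Of 84 genes lower earlier, 76 (0.418% of all genes) were back, 0 were still past both and 8 were neither. Lower genes were thus nearly all back, whereas most higher genes were neither back nor still past both. Not all of these had come down in both grafts. H2-Eb1 had 6.78 in PSI and 7.30 in PSI-F on day 1, and 8.22 and 6.20 on day 10. It was thus higher in PSI and lower in PSI-F than on day 1, with mean differences from the biopsies of 3.18 and 3.35. Slc7a7, an amino acid transporter, was the 1 gene back at the biopsy level that limma still called.

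Of the 58 genes that had been high and were back, 49 had been past both biopsies on day 1, 20 on day 3 and 3 on day 7. Chil3, the chitinase-like protein Ym1 of neutrophils and early macrophages, had 2.69 in Diabetic and 1.12 in Control on day 0, 8.60 in PSI and 8.86 in PSI-F on day 1, 5.67 and 8.93 on day 3, 2.94 and 3.41 on day 7, and 1.46 and 2.15 on day 10. Lcn2, the siderophore binding protein lipocalin-2, had 4.79 and 6.41 in the biopsies, 10.06 and 10.05 on day 1, 7.44 and 8.57 on day 3, 5.97 and 6.21 on day 7, and 6.02 and 4.72 on day 10. On day 10 Chil3 lay inside the range of the biopsies in both grafts and Lcn2 inside or just below it. Arg1, arginase 1 of repair macrophages, had 5.12 and 6.24 in the biopsies, 8.92 and 10.49 on day 3, and 5.32 and 6.07 on day 10. The 8 genes with the largest earlier departure were Chil3, Lcn2, Slfn3, Slfn4 (both schlafen genes of myeloid cells), the neutrophil chemokine Cxcl3, the acute phase protein Orm2, the protease inhibitor Timp1 and the interferon gene Ifit1bl1. Timp1, with 6.16 and 5.09, against 3.60 in Diabetic and 5.41 in Control, was back only in relation to Control. Of 17 neutrophil genes 5 were back, against 0.319% of all genes, which were S100a8, S100a9, Mmp8, Csf3r and Lcn2. Of the 17, 0 were called, with a median difference of 0.05. Clec4e, the gene with the largest difference of this list, had been past both biopsies on days 1, 3 and 7 and was not back. It had 4.39 in PSI and 2.96 in PSI-F on day 10, against 1.52 in Diabetic and 2.31 in Control. S100a8, a calprotectin subunit, had 7.86 in PSI and 6.87 in PSI-F on day 10, against 6.67 in Diabetic and 7.95 in Control, with 10.78 and 10.59 on day 1. Within the macrophage list, Cd14, a co-receptor for lipopolysaccharide, and Itgam, the CD11b integrin shared with neutrophils, were back as well.

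**Figure D4:**
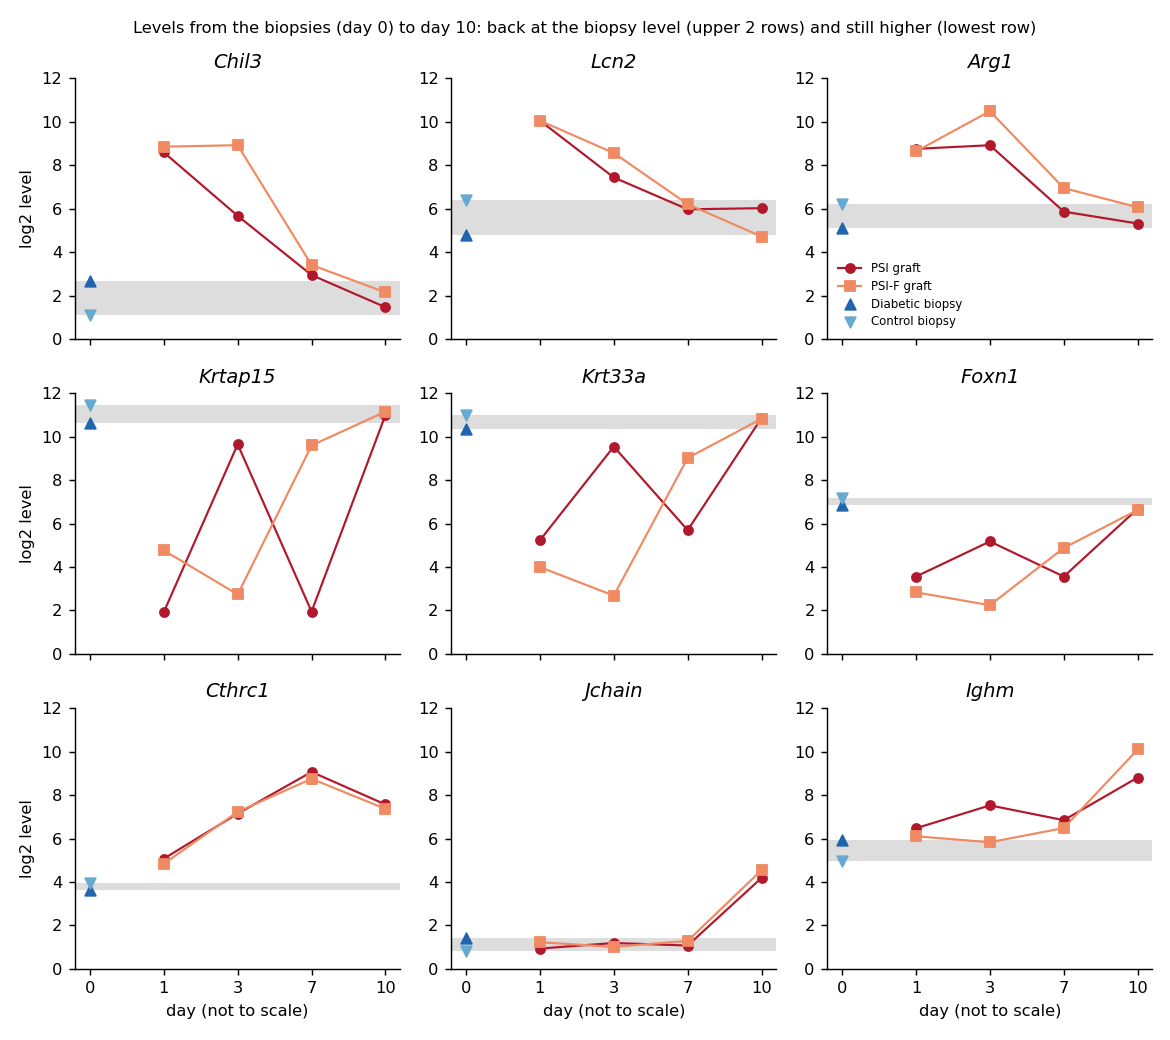
The log2 level of 9 genes by day, with the biopsies at day 0, the grafts of days 1, 3, 7 and 10 joined by lines (1 array per point, different mice), and the range of the biopsies as a grey band. Chil3, Lcn2 and Arg1 come down into the band and Krtap15, Krt33a and Foxn1 come up to it or near it by day 10, while Cthrc1 stays above it, Jchain leaves it on day 10 and Ighm is highest on day 10.

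Genes of hair were among those that had been low and were back. Of 27 hair keratins and keratin-associated proteins measured, 21 had been lower than both biopsies on an earlier day and were back on day 10, and 6 of 17 genes of the hair matrix and inner root sheath were as well. The 21 include Krtap13, which was back only in relation to Diabetic. Its day 10 level (PSI 6.31, PSI-F 6.51) exceeded that of Diabetic (5.03) and was over 4-fold below that of Control (8.61). Over probe sets, 100 were back from lower, and 67 were left without hair keratin and keratin-associated genes. Krtap15, a keratin-associated protein of the shaft, had 10.64 in Diabetic and 11.47 in Control, 1.92 in PSI and 4.77 in PSI-F on day 1, 9.65 and 2.74 on day 3, 1.95 and 9.60 on day 7, and 11.00 and 11.16 on day 10. Krt33a, a hair cortex keratin, had 10.35 and 10.99 in the biopsies, 5.23 and 4.0 on day 1, 9.55 and 2.68 on day 3, 5.70 and 9.02 on day 7, and 10.86 and 10.83 on day 10. For both genes, both grafts were low on day 1. The lower graft was PSI-F on day 3 and PSI on day 7, whereas on day 10 both grafts were at the biopsy level. The median level of the 27 genes was 8.74 in Diabetic and 10.07 in Control, 4.38 in PSI and 3.97 in PSI-F on day 1, 8.03 and 2.68 on day 3, 4.51 and 7.46 on day 7, and 9.28 and 9.51 on day 10. Foxn1, which is itself mutated in these mice and whose transcript is still made, had 6.84 and 7.18 in the biopsies, 3.56 and 2.84 on day 1, and 6.68 and 6.63 on day 10. Interfollicular epidermis did not follow this course: of 22 epidermal genes 0 had been past both biopsies and back. On day 10, 0 were called, 0 lay above both biopsies and 8 below both, where 20.8% of all genes lay below. The median difference was -0.10, with 0.10 from Diabetic and -0.41 from Control. Genes of the wound epidermis separated the biopsies instead. Krt6a, a keratin of activated epidermis, had 10.22 and 9.82 in the grafts, against 8.34 in Diabetic and 11.43 in Control, and the median over 12 such genes was 0.49 above Diabetic and -1.34 from Control.

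Over all 40 gene lists, the median difference on day 10 was highest for monocytes and macrophages (2.03) and MHC class II antigen presentation (1.59). Interferon response (1.36) and collagens (1.35) came next, and glucocorticoid and fasting targets were lowest (-0.79). From Diabetic and from Control apart, MHC class II antigen presentation had 2.10 and 1.09, and glucocorticoid and fasting targets had -1.66 and 0.09. From the mean of both biopsies, the median was 0.01 over 26 muscle genes, 0.21 over 17 adipocyte genes and -0.05 over 24 respiratory chain genes, with 0 called in each. The muscle median was -0.38 from Diabetic and 0.37 from Control. Of the 13 genes that the study names, 0 were called. The study named them for PSI-F against PSI, which is a different comparison. Il1b, interleukin 1 beta, had 5.86 in PSI and 5.10 in PSI-F, against 2.24 in Diabetic and 4.42 in Control, and was past Diabetic only. Vegfa, the vessel growth factor, had 5.89 and 5.67, against 5.76 and 5.69, and Pdgfb, a growth factor for pericytes, had 6.13 and 5.89, against 4.90 and 5.43 (difference 0.85 ± 0.22, adjusted p = 0.152).

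**Figure D5:**
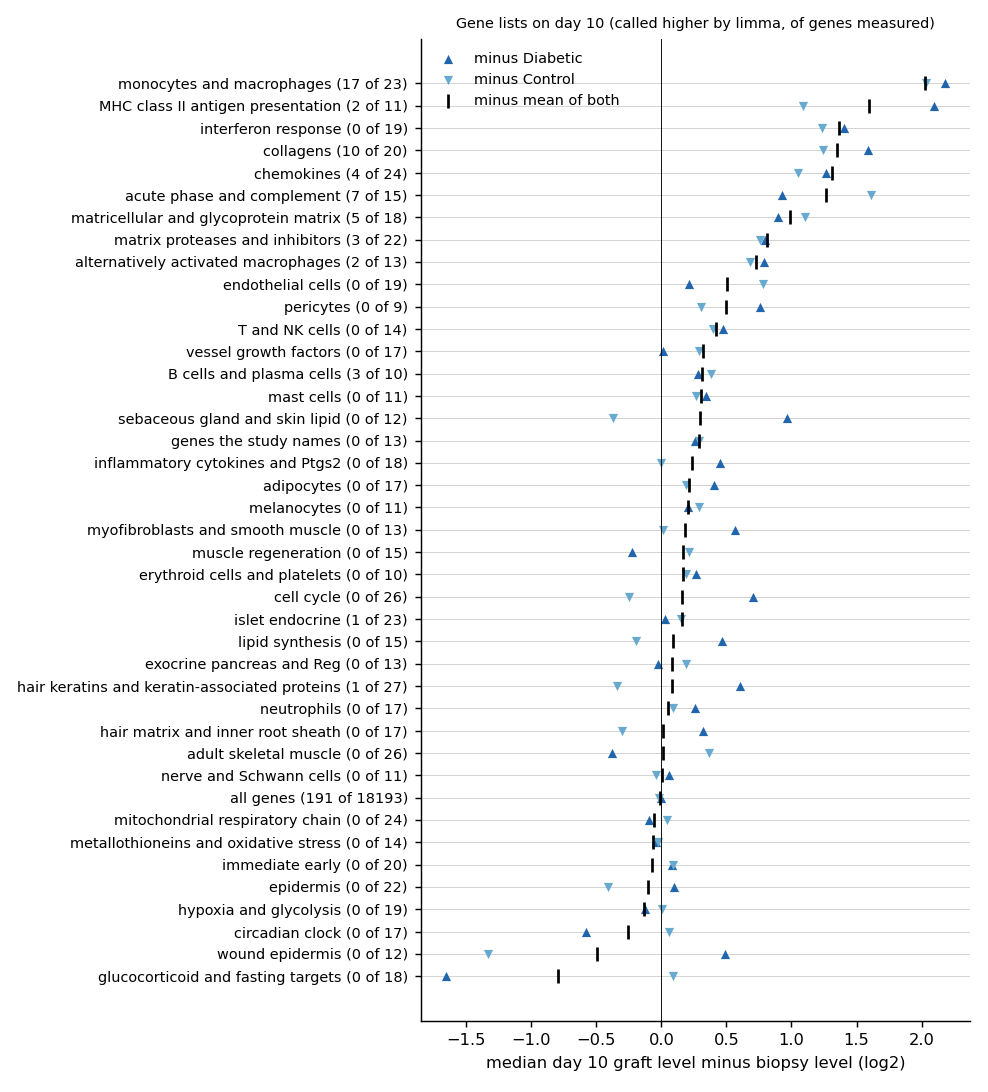
The median over each gene list of the mean of the day 10 grafts minus Diabetic (upward triangles), minus Control (downward triangles) and minus the mean of both (bars), in log2, with the genes called higher of those measured in brackets. The triangles lie together for monocytes and macrophages (2.18 and 2.03) and apart for glucocorticoid and fasting targets (-1.66 and 0.09).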

How the data were processed

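RNA of 10 tissue samples had been hybridised to Affymetrix mouse genome arrays, 1 per condition. The deposited values are log2 levels per probe set that the authors made with RMA (background correction, quantile normalization and summary of probes) in R 2.15.0 with affy 1.36.0, per the submitters' processing notes. Quantile normalization gives all arrays nearly the same distribution, so a change of most genes in 1 direction would not be seen. Of 45101 probe sets, 64 AFFX controls were left out, and 45037 were tested. Names came from the platform annotation: 34945 probe sets had 1 gene symbol, 932 several and 9160 none. Of 730 list members 675 were matched.

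The difference of the day 10 grafts from the biopsies was fitted with limma 3.58.1 (R 4.3.3, lmFit and eBayes) on all 10 arrays as 5 same-day pairs, with 5 residual degrees of freedom, and p-values were adjusted by Benjamini-Hochberg over all probe sets. Same-day arrays stand in for replicates, since no condition had any. A difference is given with the standard error of this fit. The 4-fold classes (log2 of 2), the return limit (log2 of 1) and the gene lists carry no test. Scripts were tested on simulated data. The genes named are the 10 largest differences past both biopsies, the 8 past Diabetic only, the 4 past Control only and the 8 largest returns in each direction, the leading and class members of each list, cell type markers and the genes that the study names. A few others are named for small counts or as examples of a list, after their values were seen. The comparison, the lists and the motifs were chosen with earlier results of these data known. Alternatives were the 4 arrays alone, an intensity trend, cyclic loess (3 iterations), a minimum mean level of 4, 1 probe set or the mean of all per gene, AFFX included, a 2-fold threshold, a return limit of 1.5-fold, hair genes left out, and each array left out. Signal over background could not be judged, since detection calls were not used here. The result of 1 of the motifs searched is not reported here.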

Additional observations from a re-analysis of the deposited data

Results flagged for a closer look

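The genes Gm10228, Krtap6-5 and Vegfa lay on opposite sides of both biopsies in the day 10 grafts, and the difference between PSI-F and PSI was not tested, with 1 array each. Gm10228, a keratin-associated protein gene, had 9.66 in PSI-F and 8.31 in PSI, a difference of 1.35, against 9.14 in Diabetic and 8.99 in Control. Krtap6-5, of the same family, had 10.20 in PSI-F and 9.44 in PSI, a difference of 0.76, against 9.54 and 9.79. Vegfa had 5.67 in PSI-F and 5.89 in PSI, a difference of -0.22, against 5.76 and 5.69.

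Poly-A control probe sets, outside the comparison of genes, were brighter in both day 10 grafts than in both biopsies for 12 of 24, with differences between -0.45 and 2.05. These transcripts are added to the RNA and not made by the tissue.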

How the results depend on the processing

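No paired analysis was possible because the labels carry no replicate numbers, with 1 array per condition. The count of calls rests on the arrays that share in estimating the spread. Against 346 probe sets higher and 25 lower, the 4 arrays alone gave 0 and 0, and 1 probe set per gene gave 197 and 7, as fewer were tested. Leaving out an array gave 20 to 2909 higher and 0 to 2720 lower: without PSI-F day 10 there were 20 and 0, without PSI day 10 22 and 0, without Diabetic 278 and 58, and without Control 2909 and 2720. Of the 191 genes called higher, 12 stayed called without PSI, 12 without PSI-F, 116 without Diabetic and 191 without Control. The intensity trend kept 176 and cyclic loess 186. All 36 genes past both biopsies stayed so under cyclic loess, and of them 8 were called without PSI day 10 and 10 without PSI-F.

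Some of the other moves follow from the rules of the classes. The class past both can only widen when an array is left out or the threshold is 2-fold. A class can only narrow with 1 probe set per gene, a minimum mean level, hair genes left out or a tighter return limit. The cause of the remaining moves was not tested. Counted as probe sets, the 4-fold classes held 55 higher and 1 lower than both biopsies, 230 and 147 than Diabetic only, 22 and 4 than Control only, and 97 were back from higher and 100 from lower. With 1 probe set per gene, 36 were higher and 0 lower than both biopsies, 128 and 46 than Diabetic only, and 58 had been higher and were back. At 2-fold, over probe sets, 447 and 28 were past both, 1346 and 1313 past Diabetic only, 255 and 202 past Control only, and 834 and 497 were back. A mean level of at least 4 left 34 of the 55 probe sets higher than both, 96 of the 147 lower than Diabetic only and 29 of the 97 back from higher, and a return limit of 1.5-fold left 51 of those 97. Leaving hair keratin genes out left 67 of the 100 back from lower. Leaving out an array gave, over probe sets, 73 to 285 past both higher and 2 to 148 lower, 38 to 40 past Control only higher and 12 to 22 lower, and 127 to 154 back from higher. Classes set by 1 biopsy could not be made without the other biopsy. List medians moved past the spread of the 4 differences for matrix proteases and inhibitors (0.53 with the mean of all probe sets), islet genes (0.0498 with that mean), hypoxia and glycolysis (-0.0589 with cyclic loess) and metallothioneins and oxidative stress (0.0113 with cyclic loess, -0.11 with the mean). No named gene that was called changed direction under any alternative run.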
